A study of Mus musculus with 20 samples.

Results

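Nucleolar ribosome assembly factors were followed in isolated mouse hearts as a group of 38 genes, of 31874 genes with a value. The group was built around Nle1, which was picked because its response to ischemia-reperfusion (IR) differed between fat-1 and wild-type (WT) hearts. The 37 other genes were added for their known roles in ribosome assembly, to see whether they followed Nle1. Hearts of mice aged 3 months were mounted on a Langendorff apparatus, in which the isolated heart is perfused through the aorta. RNA of the myocardium was sequenced. The fat-1 mouse carries a Caenorhabditis elegans desaturase gene that turns n-6 into n-3 polyunsaturated fatty acids. The transgene is present through life, so an acute effect of the fatty acids cannot be told apart from one of long-standing exposure. Its promoter is not given in the sources used here, and its own expression was not analysed here. Fat1-IR hearts, from fat-1 transgenic mice, were equilibrated for 40 min, kept ischemic for 20 min and reperfused for 1 h. Fat1-Con hearts, of the same genotype, were perfused without interruption for 120 min. WT-IR hearts, from C57BL/6J mice, went through the same ischemia and reperfusion as Fat1-IR hearts, and WT-Con hearts were perfused like Fat1-Con hearts. Each of the 4 groups held 5 hearts, each deposited as an independent sample.

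Ribosomes are assembled in the nucleolus, where RNA polymerase I transcribes the precursor of the ribosomal RNAs and assembly factors fold, cut and modify it as ribosomal proteins join. In the precursor of the large subunit the trimeric PeBoW complex (Pes1, Bop1 and Wdr12) acts on the ribosomal RNA, and Nle1 (Rsa4 in yeast) docks onto a later particle. The giant AAA-type ATPase Mdn1 (Rea1 in yeast) binds the N-terminal domains of both Wdr12 and Nle1 and, as worked out mainly in yeast, pulls on them to release assembly factors. Cell growth, including cardiac hypertrophy, is accompanied by raised ribosome production, and the transcription factor Myc binds CACGTG motifs (E-boxes) in many genes of this pathway.

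Gene positions are on GRCm38 (mm10). Nle1 (ENSMUSG00000020692) is on the minus strand at chr11:82900768-82908411, Pes1 on the plus strand at chr11:3963975-3980004, Bop1 on the minus strand at chr15:76452989-76477277, Wdr12 on the minus strand at chr1:60069785-60098645 and Mdn1 on the plus strand at chr4:32657119-32775217. The window around a start site was read from the RefSeq promoter table (GRCm38.p6, 250 bases before and 50 after the start), where 33 of the 38 genes were matched. The E-box letters CACGTG, which read the same on both strands, occurred in 8 of these 33 genes (24.2%) and in 8.09% of all 27025 genes in the table. The 250 bases before the Nle1 start site are shown because Nle1 carries the difference described here. They lie at chr11:82908396-82908645, minus strand:
Nle1 upstream: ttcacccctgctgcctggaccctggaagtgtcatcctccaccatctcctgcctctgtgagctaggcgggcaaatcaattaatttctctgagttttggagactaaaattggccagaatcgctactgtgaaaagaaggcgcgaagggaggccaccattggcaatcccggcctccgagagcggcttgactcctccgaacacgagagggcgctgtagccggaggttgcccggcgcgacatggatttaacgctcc
The E-box of Nle1 is past the start site. It is shown beside those of the other 7 genes to set the flanks side by side, 5′ to 3′ on the strand of the gene, with the CACGTG letters in capitals:
Nle1: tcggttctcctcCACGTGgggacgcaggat
Pes1: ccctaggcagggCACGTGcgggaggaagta
Mdn1: gaattccttcacCACGTGtgtgtc
Nop2: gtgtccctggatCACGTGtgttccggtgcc
Utp20: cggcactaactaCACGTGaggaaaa
Wdr43: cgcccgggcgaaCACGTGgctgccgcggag
Tsr1: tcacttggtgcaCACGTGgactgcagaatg
Ltv1: gccctgtggaccCACGTGtggagctgccgg
The first motif base lies 24 bases from the start site in Nle1, counting the start base as 1, and between 3 and 39 bases in Pes1, Mdn1, Utp20, Wdr43, Tsr1 and Ltv1. In Nop2 it lies 60 bases before the start. A heat shock element, searched on both strands as 3 alternating blocks of GAA and TTC with any 2 bases between blocks, was in 0 of the 33 windows and in 0.662% of all genes. Such matches describe letters only, and binding was not measured in these hearts.

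Expression was measured as FPKM, in which fragments are scaled to the exon length of the gene and to the total of the library. The length is that of all annotated exons together (11955 bases for Wdr12), which can exceed that of a transcript. Levels and ranks therefore compare only roughly between genes. Between 15626847 and 25993336 fragments were assigned to genes per heart. As for the tissue label, 7 of 7 cardiomyocyte markers were present and their mean log2(FPKM + 0.1) was 9.77 to 10.55 per heart. Some other marker means differed between groups on this scale. Endothelial markers were at 4.776 to 5.145 in WT-IR and 4.05 to 4.69 in WT-Con hearts. They were at 4.65 to 5.01 in Fat1-IR and 4.37 to 4.63 in Fat1-Con hearts. Fibroblast markers were at 4.03 to 4.43 in WT-IR and 3.58 to 3.83 in WT-Con hearts, while the fat-1 groups overlapped. Macrophage markers were at 3.12 to 3.33 in WT-IR and 2.70 to 2.92 in Fat1-IR hearts. The part of this in the differences below was not tested. Of the 20 hearts, 3 stood apart. Mitochondrial genes took 13.9% of the fragments in Fat1-IR 1 and 15.1% in WT-Con 5, against 28.4% to 39.3% in the other 18 hearts. In Fat1-IR 4 the 7 lymphocyte markers averaged 1.54 on the log2(FPKM + 0.1) scale and summed to 63.6 FPKM, while they summed to at most 1.47 FPKM in the Con and WT-IR groups. Adipocyte markers summed to 89.3 FPKM in Fat1-IR 1 and at most 11.4 FPKM in the Con and WT-IR groups. Counts of genes called and medians over all the other assembly factors are therefore given with and without these 3 hearts. Medians and signs by role or over the wider sets, and counts by unadjusted p, interval or overlap, are of all hearts.

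Nle1 was low in every Con heart and was several-fold higher in each reperfused fat-1 heart. It stood at 6.17, 7.73, 5.67, 7.0 and 5.82 FPKM in Fat1-IR hearts, and at 1.80, 1.64, 1.45, 1.73 and 1.80 FPKM in Fat1-Con hearts. In WT hearts it was 2.70, 2.70, 3.27, 1.93 and 2.06 FPKM after IR, against 1.84, 1.46, 2.50, 2.38 and 2.42 FPKM in WT-Con hearts. All 5 Fat1-IR hearts lay above the other 15, the lowest of them at 5.67 FPKM and the highest WT-IR heart at 3.27 FPKM, while the WT-IR and WT-Con hearts overlapped. Group means were 6.47 ± 0.87 FPKM in Fat1-IR, 1.68 ± 0.15 FPKM in Fat1-Con, 2.53 ± 0.54 FPKM in WT-IR and 2.12 ± 0.45 FPKM in WT-Con (SD, n = 5 each). These levels rested on 376 to 493 fragments per Fat1-IR heart, 83 to 127 per Fat1-Con heart, 126 to 209 per WT-IR heart and 90 to 180 per WT-Con heart.

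**Figure D1:**
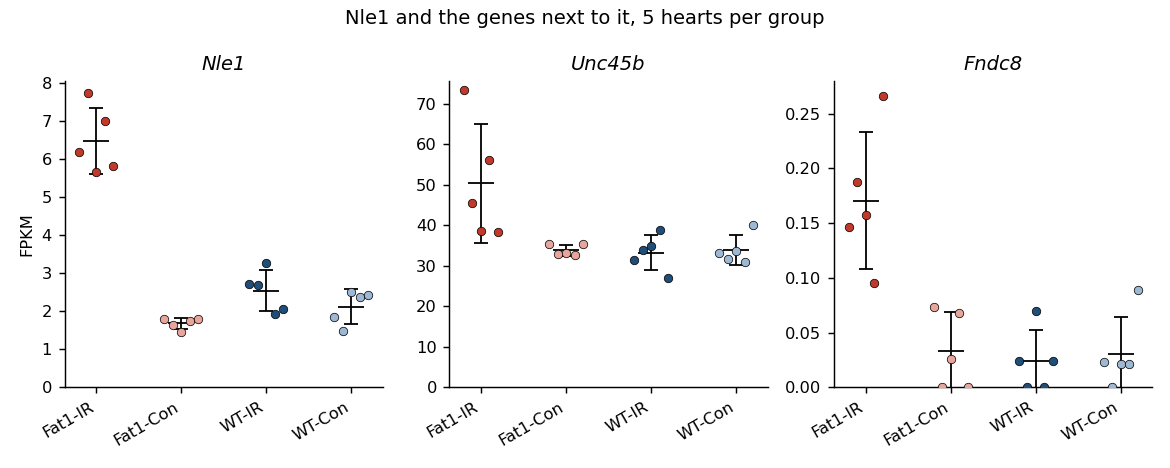
FPKM (linear axes from 0) of Nle1 and of Unc45b and Fndc8, the genes on either side of it, in Fat1-IR, Fat1-Con, WT-IR and WT-Con hearts; each point is 1 heart, and the bars show the mean and SD of 5 hearts. The 5 Fat1-IR hearts sit above all others for Nle1 (5.67 FPKM or more), while Unc45b is widely spread in Fat1-IR, between 38.3 and 73.3 FPKM.

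On the log2(FPKM + 0.1) scale the Nle1 change was 1.88 in Fat1-IR vs Fat1-Con and 0.25 in WT-IR vs WT-Con. Their difference, the interaction of genotype and IR, was 1.63, and Nle1 was 1.34 higher in Fat1-IR than in WT-IR hearts and -0.29 in Fat1-Con vs WT-Con. Nle1 was chosen on the interaction, which all 4 groups enter, so these values describe it and no test is given. Leaving out the 3 hearts that stood apart gave an interaction of 1.56. In a bulk sample, more RNA per cell and more cells that express the gene cannot be told apart.

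The genes next to Nle1 were examined because the library kit does not mark strand, so that reads of overlapping genes are not separable by it. Unc45b, which encodes a co-chaperone that folds muscle myosin, starts 2139 bases from the 5′ end of Nle1 and runs the other way. It had 73.3, 45.5, 38.5, 56.1 and 38.3 FPKM in Fat1-IR hearts, against 35.4, 33.0, 33.1, 32.6 and 35.4 FPKM in Fat1-Con hearts. These groups did not overlap, but the log2 difference of 0.53 (95% interval 0.22 to 0.83) did not pass limma's test over all genes (adjusted p = 0.0697). Over 34 fits, the reported one included, the limma adjusted p of this difference ran from 0.0119 to 0.182. Among the fits that passed were those without Fat1-IR 3 (0.61, limma adjusted p = 0.0379) and without Fat1-IR 5 (0.61, limma adjusted p = 0.0402). Only these 2 met both the adjusted p and the fold threshold used for calls below. Without the 3 hearts that stood apart the difference was 0.26 (limma adjusted p = 0.133). WT-IR hearts had 31.5, 34.0, 34.8, 38.9 and 27.0 FPKM, so that they overlapped with Fat1-IR hearts (Fat1-IR vs WT-IR difference 0.56, limma adjusted p = 0.203). Fndc8, on the other side, shares its last 34 bases with the 3′ end of Nle1 and was under the mean of 0.1 FPKM needed for the test. It had 6, 8, 7, 4 and 15 fragments in Fat1-IR hearts, 3, 0, 1, 3 and 0 in Fat1-Con hearts, 1, 0, 3, 0 and 1 in WT-IR hearts and 1, 0, 1, 1 and 3 in WT-Con hearts. Each Fat1-IR heart had more Fndc8 fragments than any other heart, at a level below 0.3 FPKM, and whether these reads come from Nle1 transcripts was not tested. Rad51d, a recombination gene beyond Fndc8, had overlapping levels, at 1.32 to 2.35 FPKM in Fat1-IR and 1.69 to 2.33 FPKM in Fat1-Con hearts.

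None of the 37 other assembly factors was called in any comparison. A call needed a change of over 1.5-fold with an adjusted p under 0.05 in limma's fit, adjusted over all 18219 genes tested. All 38 genes passed the filter on low values, with means over the 20 hearts of 0.895 to 44.5 FPKM. In Fat1-IR vs Fat1-Con, 0 of 37 were called up, where 1.3% of all genes tested were, and 0 of 37 were called down (all genes: 0.703%). In WT-IR vs WT-Con the count was also 0 of 37 in both directions, where 2.01% of all genes were called up and 1.19% down. Such shares of 37 genes come to less than 1 gene, so a count of 0 is near the background and is no result about the 37. At an unadjusted p under 0.05, limma's test passed 1 of 37 in the fat-1 comparison (all genes: 12.5%) and 2 of 37 in the WT comparison (all genes: 14.9%). The 95% interval of 26 of 37 factors in the fat-1 comparison and of 29 of 37 in the WT comparison lay wholly within a 1.5-fold change in either direction. The highest upper bound of these intervals in Fat1-IR vs Fat1-Con was 0.95, for Nhp2.

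**Figure D2:**
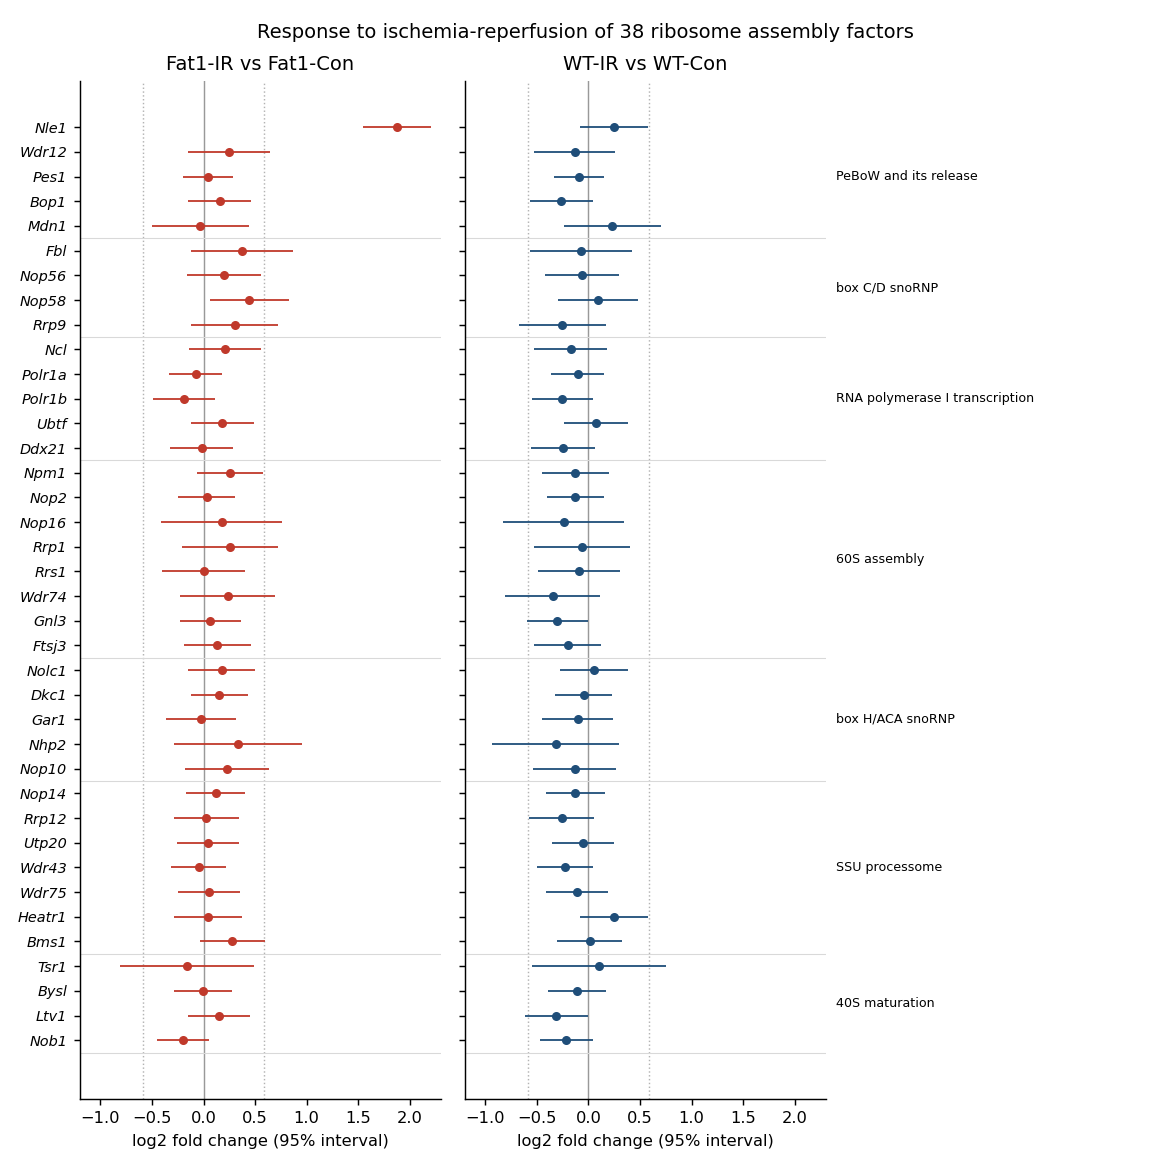
Log2 fold change with its 95% interval for the 38 ribosome assembly factors, in Fat1-IR vs Fat1-Con (left) and WT-IR vs WT-Con (right), grouped by role; dotted lines mark a 1.5-fold change. Nle1 stands at 1.88 on the left, beyond the next highest factor, Nop58, at 0.45, and at 0.25 on the right.

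None of the 3 PeBoW subunits, nor Mdn1, passed the test in Fat1-IR vs Fat1-Con, and the upper bounds of their intervals were 0.28 to 0.64. Pes1, the scaffold of PeBoW, had 8.27, 7.44, 6.93, 8.23 and 7.34 FPKM in Fat1-IR hearts, against 7.98, 7.17, 7.67, 6.68 and 7.61 FPKM in Fat1-Con hearts. The groups overlapped almost fully, with a log2 difference of 0.04 (-0.20 to 0.28). After IR in WT hearts Pes1 had 7.33, 6.33, 7.88, 9.82 and 6.38 FPKM, against 8.07, 7.37, 7.37, 7.49 and 9.59 FPKM in WT-Con hearts. That difference was -0.09 (-0.33 to 0.15), again with overlap. The Pes1 sign in the fat-1 comparison turned under median-of-ratios scaling (-0.0259) and in WT under a total without mitochondrial genes (0.038).

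Bop1, the WD-repeat subunit that links Pes1 and Wdr12, had 4.58, 4.97, 3.92, 4.78 and 3.46 FPKM in Fat1-IR hearts, against 4.20, 3.87, 3.19, 4.62 and 3.52 FPKM in Fat1-Con hearts (difference 0.16, limma adjusted p = 0.699). In WT-IR hearts it had 3.64, 3.77, 3.83, 4.30 and 3.40 FPKM, against 3.87, 4.34, 4.10, 4.20 and 6.75 FPKM in WT-Con hearts (difference -0.26, limma adjusted p = 0.433). Groups overlapped in both genotypes, and the highest value of all was that of WT-Con 5. Wdr12, the third PeBoW subunit, had 1.51, 1.02, 0.807, 1.82 and 0.927 FPKM in Fat1-IR hearts, against 0.968, 0.817, 0.921, 1.15 and 0.987 FPKM in Fat1-Con hearts (difference 0.25, limma adjusted p = 0.629). The high Fat1-IR values were those of hearts 1 and 4, which stood apart, and without the 3 such hearts the difference was -0.069. In WT-IR hearts Wdr12 had 1.06, 1.12, 0.939, 1.20 and 1.02 FPKM, against 1.01, 1.04, 1.06, 1.17 and 1.72 FPKM in WT-Con hearts (difference -0.13, limma adjusted p = 0.823). Only WT-Con 5 lay outside the WT-IR range on the high side.

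Mdn1, the ATPase that acts on Nle1, was the lowest of these factors. It had 0.971, 0.831, 0.870, 1.11 and 0.745 FPKM in Fat1-IR hearts, against 0.878, 0.935, 0.951, 0.801 and 1.04 FPKM in Fat1-Con hearts (difference -0.03, interval -0.50 to 0.44). In WT-IR hearts Mdn1 had 1.07, 0.913, 0.982, 0.934 and 0.728 FPKM, against 1.03, 0.934, 0.970, 0.917 and 0.287 FPKM in WT-Con hearts. The WT difference of 0.23 (-0.24 to 0.71) rested on WT-Con 5 and was -0.057 without it. Mdn1 has 21836 exon bases, the longest of the factors named here.

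**Figure D3:**
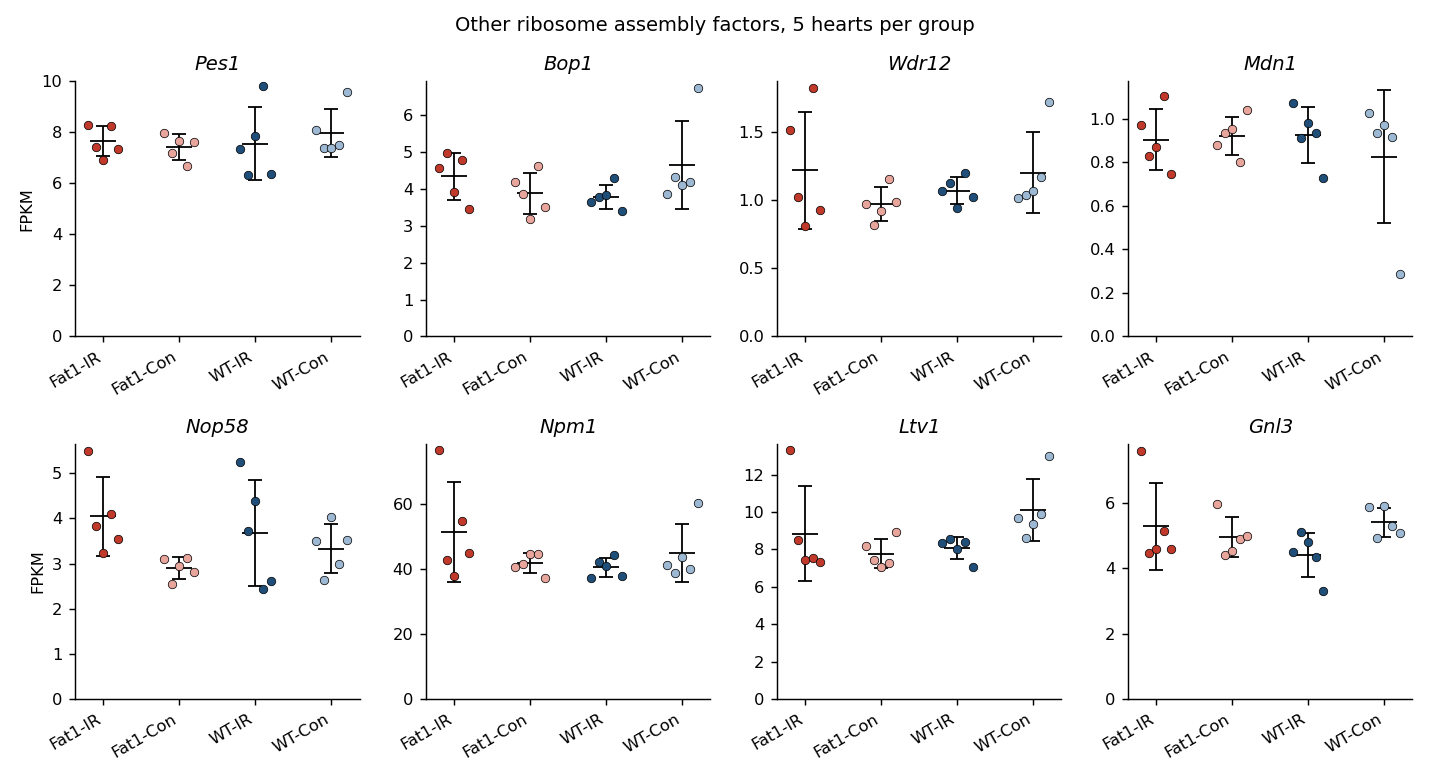
FPKM by heart (linear axes from 0) of the PeBoW subunits Pes1, Bop1 and Wdr12, of the ATPase Mdn1 and of Nop58, Npm1, Ltv1 and Gnl3, in Fat1-IR, Fat1-Con, WT-IR and WT-Con; points are hearts and bars the mean and SD of 5. Groups overlap except for Nop58 in Fat1-IR vs Fat1-Con and Ltv1 in WT-IR vs WT-Con, and single hearts such as Fat1-IR 1 and WT-Con 5 stand out.

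Box C/D particles methylate ribosomal RNA and process its precursor. With all hearts, all 4 of their proteins followed here had positive differences in Fat1-IR vs Fat1-Con, with a median of 0.34. Nop58, a core protein of these particles, had 5.50, 3.84, 3.24, 4.09 and 3.54 FPKM in Fat1-IR hearts, against 3.09, 2.54, 2.95, 3.12 and 2.81 FPKM in Fat1-Con hearts. It was the only 1 of the 37 factors whose fat-1 groups did not overlap, where 4.22% of all genes were higher without overlap. Its log2 difference of 0.45 (0.06 to 0.83) did not pass the test over all genes (limma adjusted p = 0.297), and without the 3 hearts that stood apart it was 0.28. In WT-IR hearts Nop58 had 5.24, 3.72, 4.37, 2.43 and 2.62 FPKM, against 3.49, 2.63, 4.03, 2.98 and 3.52 FPKM in WT-Con hearts, with overlap and a difference of 0.09. Its partner Nop56, the methyltransferase Fbl and the U3 protein Rrp9 were between 0.20 and 0.37 in the fat-1 comparison, and each had its highest Fat1-IR value in Fat1-IR 1.

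Factors of RNA polymerase I transcription were mixed in sign in Fat1-IR vs Fat1-Con (2 of 5 positive) and mostly negative in WT-IR vs WT-Con (1 of 5 positive). With all hearts, the interaction was positive for all 5, from 0.03 to 0.38. The subunit genes Polr1a and Polr1b, the rDNA-binding factor Ubtf, the helicase Ddx21 and nucleolin (Ncl), a nucleolar RNA-binding protein, ranged from -0.19 (Polr1b) to 0.21 (Ncl) in Fat1-IR vs Fat1-Con and from -0.25 (Polr1b) to 0.08 (Ubtf) in WT-IR vs WT-Con. Ncl had 49.1, 23.0, 22.1, 25.6 and 23.9 FPKM in Fat1-IR hearts, against 21.7, 21.9, 22.6, 24.2 and 19.9 FPKM in WT-IR hearts. The difference of 0.31 (limma adjusted p = 0.809) was the highest of the 37 in Fat1-IR vs WT-IR, and the other 4 Fat1-IR hearts lay within or just above the WT-IR range, with Fat1-IR 1 far above it. Without the 3 hearts that stood apart the Ncl difference was 0.06.

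The 8 further large-subunit factors included the abundant histone chaperone Npm1, the GTPase nucleostemin (Gnl3) and the ribosomal RNA methyltransferases Nop2 and Ftsj3. Npm1 had 76.3, 42.6, 37.7, 54.5 and 45.0 FPKM in Fat1-IR hearts, against 37.3, 42.0, 40.9, 44.3 and 37.8 FPKM in WT-IR hearts, with overlap (difference 0.30, limma adjusted p = 0.799; 0.04 without the 3 hearts). Gnl3 had 4.48, 5.09, 4.80, 4.34 and 3.31 FPKM in WT-IR hearts, against 5.85, 4.93, 5.89, 5.28 and 5.07 FPKM in WT-Con hearts. WT-IR 2 lay above WT-Con 2 and 5, so the groups overlapped, and the difference of -0.30 did not pass the test (limma adjusted p = 0.330). With all hearts, all 8 had positive differences in the fat-1 comparison (0.001 to 0.26) and negative ones in the WT comparison (-0.35 to -0.06). Without the 3 hearts, 10 of the 37 factors were positive in the fat-1 comparison, and the 8 were not counted on their own.

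The box H/ACA proteins, which convert uridines of ribosomal RNA to pseudouridine, are Dkc1, the enzyme, with Nhp2, Nop10 and Gar1, and they were taken with the chaperone Nolc1. Their median difference was 0.18 in Fat1-IR vs Fat1-Con and -0.10 in WT-IR vs WT-Con. Of these genes Nhp2 had the widest intervals, since WT-Con 5 stood at 34.8 FPKM and the other WT-Con hearts at 10.2, 8.30, 7.61 and 9.31 FPKM.

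For the small subunit, the 7 genes of the processome, the particle that forms on the nascent precursor, had a median of 0.05 in the fat-1 and -0.11 in the WT comparison. Bms1, its GTPase, had 9.87, 5.39, 5.30, 7.24 and 5.71 FPKM in Fat1-IR hearts, against 5.21, 5.71, 5.28, 5.28 and 5.26 FPKM in Fat1-Con hearts (difference 0.28, limma adjusted p = 0.470). The high values were again those of Fat1-IR 1 and 4, the groups overlapped, and without the 3 hearts the difference was 0.03.

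Of the 4 factors that mature the small subunit, Ltv1, which in yeast leaves the particle late in assembly, had 8.33, 8.54, 8.01, 8.38 and 7.07 FPKM in WT-IR hearts, against 9.68, 8.62, 9.37, 9.87 and 13.0 FPKM in WT-Con hearts. It was the only 1 of the 37 whose WT groups did not overlap, where 1.39% of all genes were lower without overlap. The gap between the highest WT-IR heart and the lowest WT-Con heart was narrow, and the difference of -0.31 did not pass the test (limma adjusted p = 0.318). WT-Con 5 was the highest WT-Con heart, and without the 3 hearts that stood apart the difference was -0.22. Ltv1 was also -0.37 in Fat1-Con vs WT-Con (limma adjusted p = 0.757), with overlap, and -0.27 without the 3 hearts. Nob1, the endonuclease that makes the mature end of the small-subunit RNA, had 5.04, 4.54, 4.15, 5.52 and 4.28 FPKM in Fat1-IR hearts, against 5.59, 5.71, 5.55, 5.05 and 5.10 FPKM in Fat1-Con hearts, with overlap (difference -0.20, limma adjusted p = 0.528). With no fold threshold it passed without the 3 hearts (-0.31, limma adjusted p = 0.0214; all genes in that fit: 3.81%). With all hearts and array weights it passed as well (-0.28, limma adjusted p = 0.0225, all genes in that fit: 6.93%). Tsr1 had 0.784 FPKM (47 fragments) in WT-Con 5, against 5.06, 3.56, 4.47 and 3.31 FPKM in the other WT-Con hearts. It also shares 32.3% of its exon bases with Srr and is uncertain for both reasons.

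Between genotypes the factors also overlapped. In Fat1-IR vs WT-IR 0 of 37 were called (all genes: 0.0604% up and 0.0439% down), and 0 of 37 had an unadjusted p under 0.05 in limma's test (all genes: 6.81%). In Fat1-Con vs WT-Con 0 of 37 were called (all genes: 0.022% up and 0.00549% down), and 1 of 37, Ltv1, had an unadjusted p under 0.05 in limma's test (all genes: 5.63%). No factor was free of overlap in either comparison, where at most 0.906% of all genes were in one direction. The median over the 37 was 0.14 in Fat1-IR vs WT-IR, with 30 positive, against 0.03 and 55.4% positive over all genes. In Fat1-Con vs WT-Con it was -0.13, with 8 positive, against -0.005 and 48.8% positive over all genes. Without the 3 hearts these medians were -0.04 (11 positive, all genes: -0.08) and -0.06 (9 positive, all genes: -0.01). With genotypes averaged 0 of 37 were called for IR vs Con (all genes: 2.86% up and 1.48% down), 2 of 37 had an unadjusted p under 0.05 in limma's test (all genes: 19.1%), and all 37 intervals lay within a 1.5-fold change. The smallest p there were those of Nob1 (-0.21, limma adjusted p = 0.177), Polr1b (-0.22, limma adjusted p = 0.237) and Nop58 (0.27, limma adjusted p = 0.271).

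Over the 37 factors, the median difference was 0.13 in Fat1-IR vs Fat1-Con (28 positive), where the median of all genes was 0.08, and -0.13 in WT-IR vs WT-Con (7 positive), where it was 0.04. For the interaction, the median was 0.25 with 34 of 37 positive, against 0.04 and 53.9% positive over all genes. The interaction was the contrast that chose Nle1, and 0.00549% of all genes were called up in it and 0% down; 1 of the 37, Ltv1, had an unadjusted p under 0.05 in limma's test (all genes: 5.31%). The median of the 37 minus that of all genes was thus 0.05 in fat-1 hearts, -0.16 in WT hearts and 0.21 for the interaction. Without Fat1-IR 1, Fat1-IR 4 and WT-Con 5 the medians were -0.05 (10 of 37 positive; all genes: -0.03) in fat-1 hearts, -0.06 (11 positive; all genes: 0.06) in WT hearts and 0.005 (20 positive; all genes: -0.07) for the interaction. The 37 minus all genes then came to -0.02, -0.12 and 0.08. Without Fat1-IR 1 alone the fat-1 median was -0.002 (18 positive; all genes: 0.02). Scaling to a total without mitochondrial genes gave 0.003 (21 positive) in WT hearts and 0.05 (21 positive) for the interaction, but it moved all genes alike, to 0.15 and -0.14, so that the 37 minus all genes stayed at -0.15 and 0.19.

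**Figure D4:**
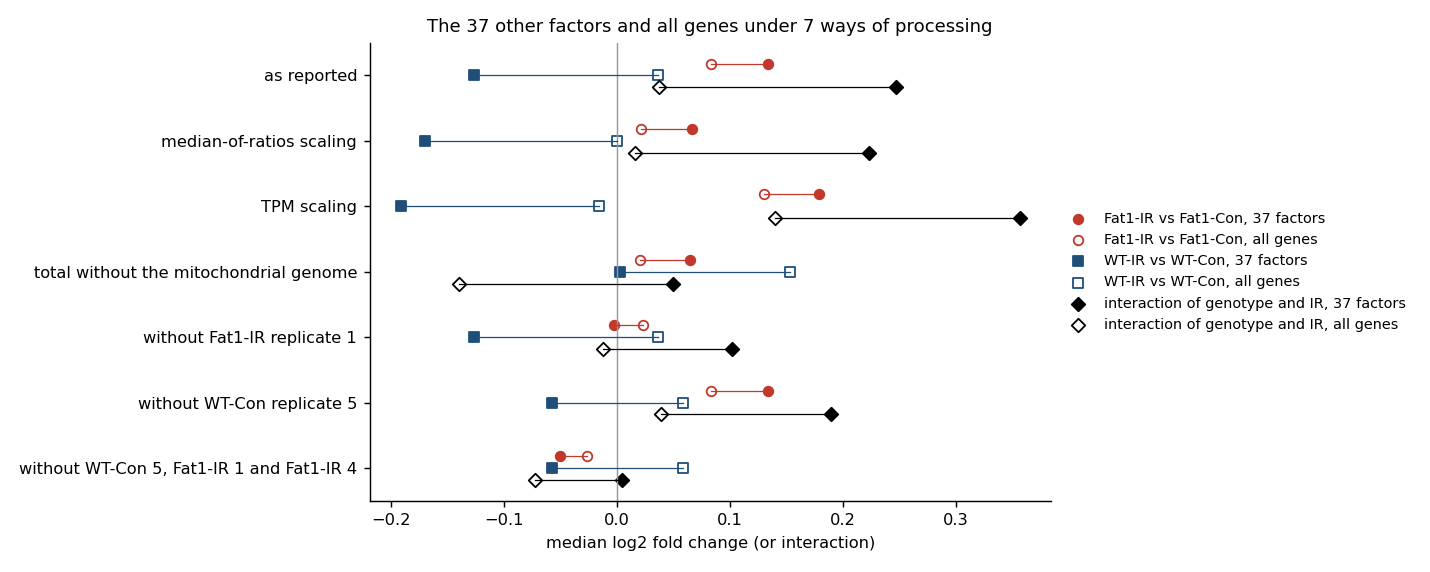
Median over the 37 factors besides Nle1 (filled marks) and over all genes tested (open marks) of the log2 fold change in Fat1-IR vs Fat1-Con (circles) and WT-IR vs WT-Con (squares) and of the interaction (diamonds), under 7 ways of processing; a line joins the 2 marks of each fit. As reported the medians of the 37 are 0.13, -0.13 and 0.25, against 0.08, 0.04 and 0.04 over all genes. Without Fat1-IR 1, Fat1-IR 4 and WT-Con 5 they are -0.05, -0.06 and 0.005, against -0.03, 0.06 and -0.07.

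Without those 3 hearts 4 factors passed an adjusted p under 0.05 with no fold threshold when genotypes were averaged, all lower after IR, where 15.5% of all genes passed in the same fit. With all hearts 0 of 37 did so (all genes: 7.17%), so the factors' share was below that of all genes in both fits. They were Ddx21 (-0.29, limma adjusted p = 0.00927), Nob1 (-0.20, limma adjusted p = 0.00989), Tsr1 (-0.32, limma adjusted p = 0.0190) and Wdr43 (-0.24, limma adjusted p = 0.0236), named here after their values were seen. In WT-IR vs WT-Con without the 3 hearts, Ddx21 also passed with no fold threshold (-0.38, limma adjusted p = 0.0166; all genes: 10.1%). With all hearts and array weights, 5 of 37 passed with genotypes averaged (all genes: 18.5%), all lower after IR. They were the same 4 and Polr1b (-0.27, limma adjusted p = 0.038). In that fit Ddx21 also passed in WT-IR vs WT-Con (-0.36, limma adjusted p = 0.023, all genes: 10.5%). Under median-of-ratios scaling Nob1 alone passed with genotypes averaged (-0.26, limma adjusted p = 0.0476, all genes: 7.98%). None of these factors reached a 1.5-fold change, and 0 of the 37 were called under any of the alternatives run.

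In WT-Con 5 short transcripts were high and long ones low. Against the median of the other WT-Con hearts, the log2 level fell with exon length across the 38 factors (Spearman rho = -0.60) and across 13439 protein-coding genes (rho = -0.56), which share 1 library and are not independent. In Fat1-IR 1 rho was -0.23 over both sets. In the other 18 hearts it lay between -0.22 and 0.34 over the 38 factors and between -0.24 and 0.21 over protein-coding genes. Fat1-IR 1 thus lay just below the first range and within the second. The part of this in the differences above was not tested beyond leaving the hearts out.

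Within each heart, Nle1 was set against the mean of the other factors, which removes the scaling of the heart. Nle1 minus the mean log2(FPKM + 0.1) of the 37 was -0.31, 0.54, 0.26, 0.20 and 0.24 in Fat1-IR hearts, against -1.46, -1.57, -1.77, -1.58 and -1.51 in Fat1-Con hearts. It was -0.84, -0.92, -0.72, -1.53 and -1.15 in WT-IR hearts, against -1.57, -1.75, -1.08, -1.15 and -1.43 in WT-Con hearts. By level per length, Nle1 ranked 9 to 24 of the 38 factors in Fat1-IR hearts, 34 to 35 in Fat1-Con, 31 to 34 in WT-IR and 32 to 35 in WT-Con. Among the genes with an E-box the 7 besides Nle1 ranged from -0.16 to 0.15 in Fat1-IR vs Fat1-Con.

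**Figure D5:**
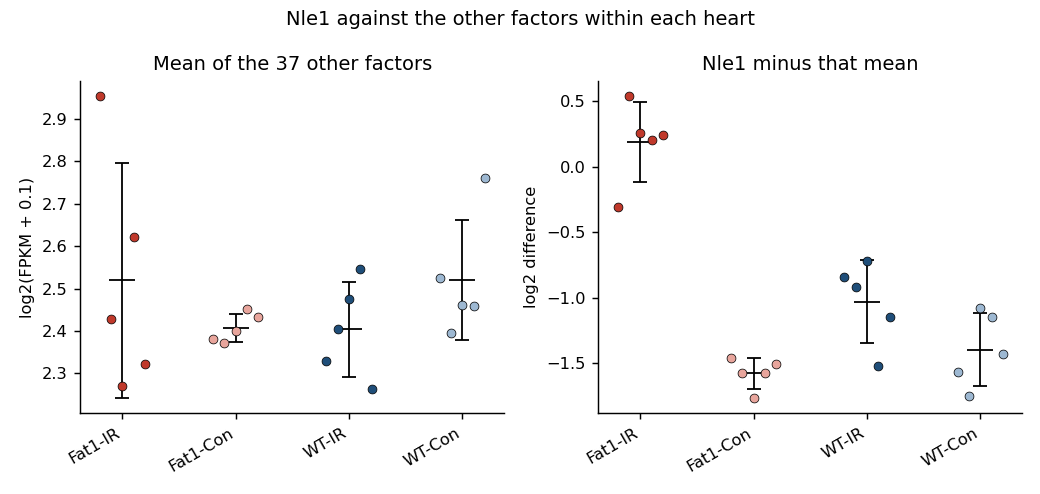
Mean log2(FPKM + 0.1) of the 37 other factors (left) and Nle1 minus that mean (right) in each Fat1-IR, Fat1-Con, WT-IR and WT-Con heart, with the mean and SD of 5 hearts. The factors' mean overlaps between groups, highest at 2.95 in Fat1-IR 1, while Nle1 minus the mean is at least -0.31 in Fat1-IR and at most -0.72 in all other hearts.

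Wider sets of related genes were read in the same fit. Of 109 further ribosome assembly factors tested, 0 were called in any of the 6 comparisons. With no fold threshold, Nol9, a kinase of precursor ribosomal RNA, was lower in Fat1-IR, at 2.03, 1.54, 1.82, 2.31 and 1.48 FPKM, than in Fat1-Con, at 2.52, 2.70, 2.52, 2.96 and 2.71 FPKM (difference -0.54, limma adjusted p = 0.0160; all genes at this threshold: 2.22%). In WT-IR hearts Nol9 was at 1.89 to 2.22 FPKM, against 2.28 to 2.92 FPKM in WT-Con hearts (difference -0.29, limma adjusted p = 0.235). In Fat1-IR vs Fat1-Con Nol9 was called, with the fold threshold, under 5 alternatives. These were median-of-ratios scaling, the total without mitochondrial genes, array weights, without Fat1-IR 4 and without the 3 hearts (-0.70, limma adjusted p = 0.00105). The helicase gene Ddx55 was called in WT-IR vs WT-Con under 2 (0.66 under the total without mitochondrial genes, 0.65 without the 3 hearts), and Znhit3 and Rcl1 under 1 each. With genotypes averaged, 5 of the 109 passed an adjusted p under 0.05 (all genes: 7.17%), with Znhit3 and Utp23 as higher and Nol9, Rpf1 and Mybbp1a as lower. Of 10 tested genes of the Myc network, in which Myc and its antagonists compete for the partner Max at E-boxes, Mxd1, a repressor, rose in Fat1-IR hearts. It had 3.36, 3.46, 2.80, 3.18 and 2.50 FPKM in Fat1-IR hearts, against 1.5, 2.0, 1.56, 1.64 and 1.40 FPKM in Fat1-Con hearts, with no overlap (difference 0.88, limma adjusted p = 0.00437). Its WT difference was 0.30 and its interaction 0.58 (limma adjusted p = 0.831), so a difference in response between genotypes was not shown. Mxd4, a related repressor, had 3.30, 4.44, 3.86, 5.94 and 7.08 FPKM in WT-IR hearts, against 2.64, 3.12, 2.56, 2.95 and 3.36 FPKM in WT-Con hearts, with overlap (difference 0.68, limma adjusted p = 0.0382). This call was lost in 12 of the alternatives, among them leaving out WT-IR 5 (0.54). Mycn rose 0.82 after IR with genotypes averaged (limma adjusted p = 0.00274), and with a pseudocount of 1 it was 0.41, under a 1.5-fold change and not called. Myc itself had 30.9, 35.4, 30.6, 28.9 and 32.3 FPKM in Fat1-IR hearts, against 31.0, 29.2, 28.9, 14.1 and 10.9 FPKM in WT-IR hearts, with the 2 lowest values of all hearts in WT-IR 4 and 5 (difference 0.59, limma adjusted p = 0.658). In WT-IR vs WT-Con Myc was -0.76 (-1.29 to -0.23, limma adjusted p = 0.120), with overlap, and was called under 1 alternative. In Fat1-IR vs Fat1-Con it was -0.07, and the interaction of 0.69 did not pass the test. These Myc network genes and the assembly factors outside the 38 were named after their values were seen.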

How the data were processed

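Myocardial RNA of 20 hearts had been extracted with TRIzol, made into libraries with the NEBNext Ultra kit and sequenced on the HiSeq platform. The authors deposited FPKM values; the sample labels name HISAT2, featureCounts and mm10, and neither versions nor the annotation release were given. FPKM times GENCODE M21 exon length gave whole fragments (tolerance 0.02, under 1000 fragments) for 98.5% of 31217 genes. On log2(FPKM + 0.1), 18219 genes (mean FPKM 0.1 or more) were fitted with limma 3.58.1 in R 4.3.3: means of 4 groups, variance trend, two-sided tests, Benjamini-Hochberg adjustment over all genes tested, calls at adjusted p under 0.05 and fold over 1.5. The fit was tested on simulated data. The members, the lists and the 3 hearts left out together were chosen with earlier results of these data known. Named are Nle1, the PeBoW subunits, Mdn1, every called member and, per comparison, the 4 with the smallest p. Alternatives covered pseudocount, filter, scaling, variance model, voom on fragments, replicate block and left-out hearts. Python 3.11.15 and matplotlib 3.10.9 drew the figures.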

Additional observations from a re-analysis of the deposited data

Results flagged for a closer look

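Nle1 was picked for its interaction of genotype and IR of 1.63 on the log2 scale, which is a description here. A single heart stood off from the 4 others of its group by Dixon's criterion in 13 of 68 groups over 17 named genes, where chance gives about 1 in 20. WT-Con 5 accounted for 7 of these, being the highest of its group for Wdr12 (1.72 FPKM), Bop1 (6.75 FPKM), Ncl (33.4 FPKM), Npm1 (60.3 FPKM), Ltv1 (13.0 FPKM) and Nob1 (7.49 FPKM) and the lowest for Mdn1 (0.287 FPKM). Fat1-IR 1 was the highest of its group for Ncl (49.1 FPKM), Gnl3 (7.58 FPKM) and Ltv1 (13.3 FPKM). The remaining 3 were Nop2 in Fat1-Con 4 (5.23 FPKM, highest), Nop2 in WT-Con 3 (4.14 FPKM, lowest) and Bms1 in Fat1-Con 2 (5.71 FPKM, highest).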

How the results depend on the processing

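Nle1 was chosen on the interaction, so its being counted there is a description: the count of members was 1 (Nle1) as reported and 0 under a total without mitochondrial genes, with a replicate block, and when WT-Con 5 and Fat1-IR 1 and 4 were left out. Every other count of called members kept its value under the alternatives run. Replicate numbers did not pair the hearts, since correlations of same-numbered hearts ran from -0.136 to 0.0604 over 30 pairs, and the replicate block changed no other count. Factors near 0 changed sign. In Fat1-IR vs Fat1-Con, Pes1 was -0.0259 under median-of-ratios scaling, -0.0275 under the mitochondria-free total, -0.0147 with array weights and -0.0341 without the 3 hearts, where Wdr12 was -0.069, and Mdn1 was 0.012 under TPM scaling and -0.099 to 0.030 leaving out 1 heart. In WT-IR vs WT-Con, Pes1 was 0.038 under the mitochondria-free total, and Mdn1 was -0.0292 with array weights, -0.057 without the 3 hearts and -0.057 (without WT-Con 5) to 0.33 leaving out 1 heart. The cause was not tested. Over all genes the mitochondria-free total called 593 up and 162 down in WT-IR vs WT-Con, against 367 and 216 as reported, and array weights called 428 and 317 in Fat1-IR vs Fat1-Con, against 236 and 128. Depth limits Fndc8 most, at 15 fragments or fewer per heart.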
